A study of Mus musculus with 67 samples.

Results

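The comparison covers the first step by which the pluripotent cells of the mouse blastocyst become the epiblast of the implanting embryo. It sets 3 libraries of epiblast (Epi) at embryonic day 4.5 (E4.5) against 3 libraries of inner cell mass (ICM) at E3.5, 6 of the 67 libraries of the series. The members were chosen by their labelled tissue and age, and every gene of the table entered the analysis. The series measured messenger RNA by Smart-seq2, a full-length cDNA method for very few cells, in lineages separated from blastocysts and early post-implantation embryos. The stated genotype of every library is wild type, with no strain given in the labels. The embryos came from natural matings, and the study's design names a reporter line in which the promoter of Pdgfra, a receptor gene of the primitive endoderm, drives EGFP and helps to separate the lineages. ICM cells at E3.5 were freed from the zona pellucida with pronase and dispersed by pipetting, while embryos of later ages were dispersed with trypsin. Each library pooled roughly 10 to 100 cells and was amplified by 17 cycles of PCR, and the labels name 3 biological replicates in a group without saying whether these were separate embryos. The p-values below therefore rest on the spread of these libraries alone, and that spread may be technical. The labels of the E4.5 epiblast do not say whether the embryos were cultured, and age, mode of cell release and reporter sorting cannot be told apart in this comparison.

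As background, the ICM of the early blastocyst holds cells that already express epiblast or primitive endoderm genes in a scattered, mixed pattern. Over the following day FGF signalling between these cells sorts them into the naive epiblast, which keeps NANOG, and the primitive endoderm (PrE), which keeps GATA6 and lines the cavity. The epiblast then leaves the naive state around implantation, passes through a formative state marked by OTX2 and the de novo DNA methyltransferases, and later gives rise to the embryo proper.

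The analysis was made on TPM values, length-scaled shares of each library's transcripts, with the ribosomal RNA precursor gene Rn45s left out and each library rescaled to a sum of 1000000. The share of Rn45s in the deposited TPM was 0.566% ± 0.0378 in ICM but 22.0% ± 3.17 in E4.5 Epi and 17.6% ± 2.91 in E4.5 PrE, and it was 1.01% ± 0.172 in Epi of E4.75 (SD over 3 libraries). TPM keeps no depth, so counting error is unknown. Epi replicate 1 stood apart: 3307 of 25006 genes were listed at 0 in it, against 13659 and 12723 in Epi replicates 2 and 3 and 11444 to 11852 in ICM. Of 8673 genes at 0 in the other 5 libraries, 6203 were above 0 in Epi replicate 1, at a median of 0.748 TPM. Pearson correlations of log2(TPM + 1) across genes were 0.987 to 0.989 within ICM, 0.927 to 0.936 within Epi and 0.882 to 0.890 between the groups. The median SD of a gene was 0.20 log2 in ICM and 0.53 log2 in Epi. Array weights, which limma sets by how closely a library follows its group, were 2.27 to 2.80 in ICM. They were 0.534, 0.253 and 0.443 in Epi replicates 1, 2 and 3, lowest in replicate 2. In the text ± after a level is an SD over 3 libraries, and ± after a log2 difference is its standard error. A log2 difference is Epi minus ICM on the log2(TPM + 1) scale, which understates the change of low genes, and adjusted p-values are from limma with Benjamini-Hochberg adjustment over all genes tested. "Rose", "fell" and "called" are used for genes whose log2 difference was 1 or more in either direction with an adjusted p under 0.05. In every called gene named below the 3 Epi libraries lay all above or all below the 3 ICM libraries.

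Of the 11149 genes with at least 1 TPM in at least 3 of the 6 libraries, 2111 (18.9%) rose and 1604 (14.4%) fell, 33.3% in all. The values of the 3 Epi libraries did not overlap those of the 3 ICM libraries for 6063 genes (54.4%), and this held for 3700 of the 3715 genes called. The median log2 difference of all genes tested was 0.07. Higher genes made up 56.8% of the calls. That split depended on the scaling: higher genes were 41.4% of the calls with Rn45s kept, 48.1% with median-ratio scaling and 48.9% with quantile normalization, settings that moved the all-gene median by -0.30, -0.16 and -0.12 log2. Leaving out ICM replicate 1, 2 or 3 lowered the number of fallen genes to 972, 954 and 960, in part because a gene near 0 in Epi can then no longer reach 1 TPM in 3 libraries. With the filter set at 2 libraries for such fits, which was chosen with the values already known, 1074 to 1112 fell. Group counts below are to be read against these shares of all genes. A gene that reaches 1 TPM only in the group where it is high had to differ to be tested, so counts over tested members describe those members and no more. The adjusted p-values of such genes carry the same limit. Among such genes were 106 of the rises, at 0 in all ICM libraries, and 46 of the falls, at 0 in all Epi libraries.

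**Figure D1:**
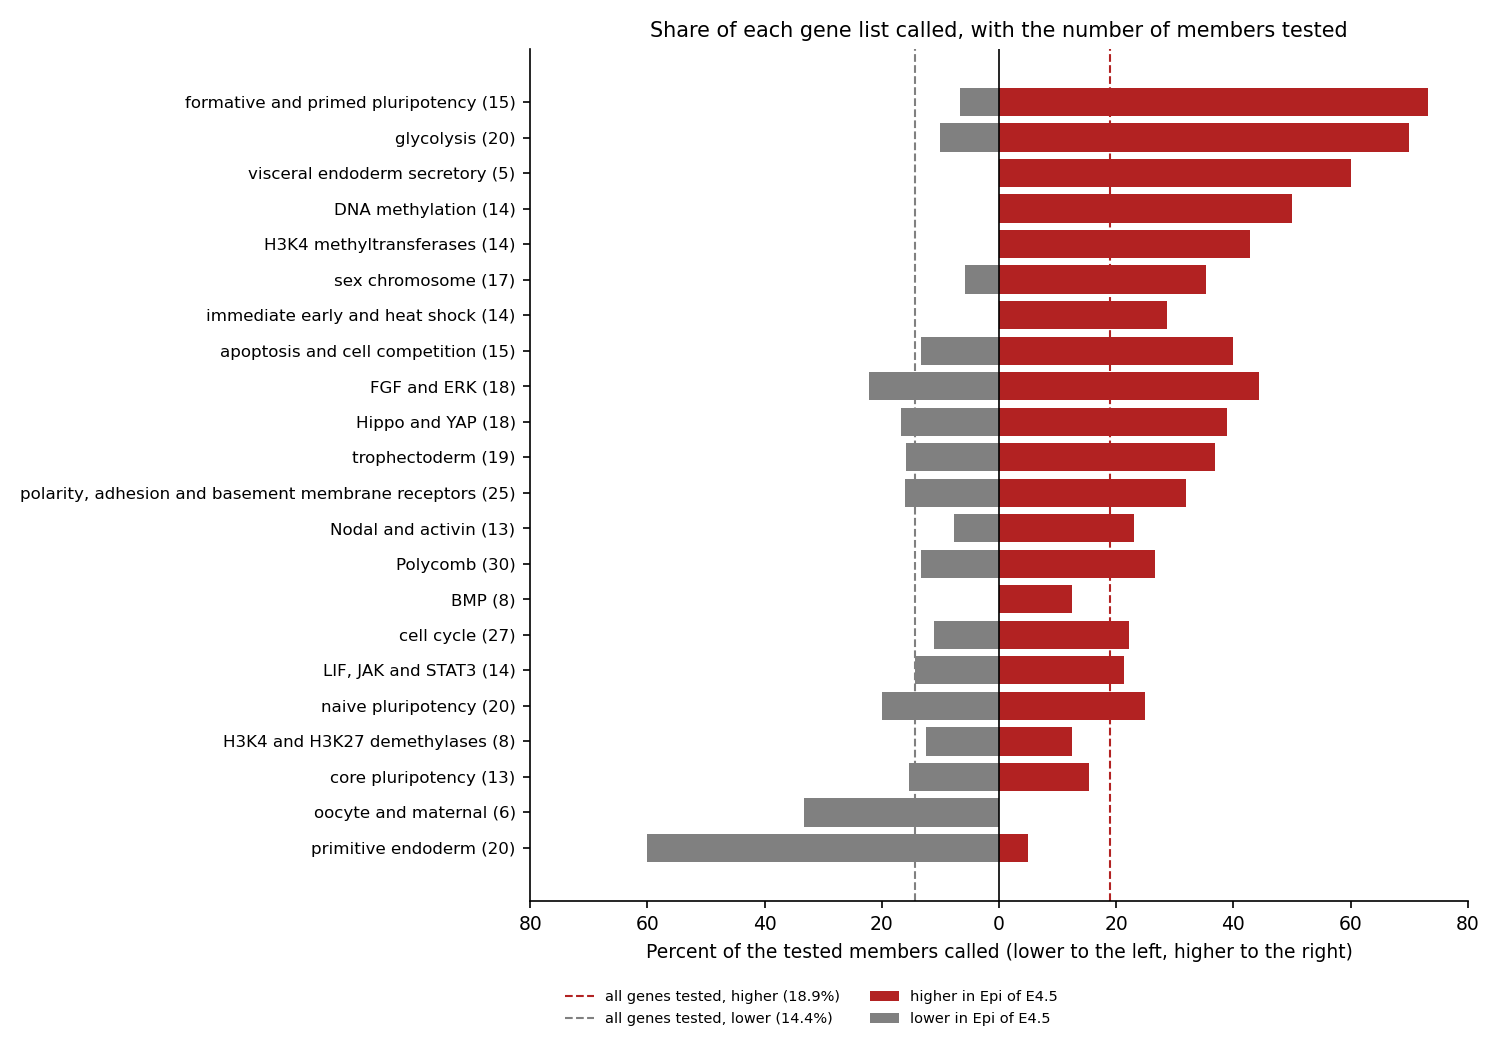
Percent of the tested members of each gene list that rose (to the right) or fell (to the left) from ICM to Epi of E4.5, for the lists with at least 5 members tested (number in brackets), ordered by the balance of the 2 shares. Dashed lines mark the shares of all 11149 genes, 18.9% higher and 14.4% lower. The formative and primed list and the glycolysis list reach farthest to the right, and the primitive endoderm list reaches farthest to the left.

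Neither marker of the label passed the test, while single core and naive genes moved in opposite directions. Nanog, the homeodomain factor that marks the naive epiblast, was 403, 395 and 433 TPM in ICM and 391, 247 and 329 TPM in Epi. The lowest ICM library lay just above the highest Epi library, and the difference did not pass the test (log2 difference -0.37 ± 0.16, adjusted p = 0.092). Pou5f1, which encodes OCT4, was 187, 216 and 212 TPM in ICM and 165, 294 and 247 TPM in Epi. Its groups overlapped (log2 difference 0.16 ± 0.20, adjusted p = 0.55), and the sign of this small difference turned with the scaling, as it was -0.19 with Rn45s kept and -0.03 with median-ratio scaling. Both label markers were thus present in every library of both groups. Of the 13 core pluripotency genes tested, 2 rose, 2 fell and 9 were not called, with a median log2 difference of -0.03. Utf1, a chromatin-bound pluripotency factor, rose from 827, 797 and 788 to 2552, 3667 and 2731 TPM (log2 difference 1.87 ± 0.13, adjusted p = 7e-06). The lowest Epi library held more than 3 times the level of the highest ICM library. Lin28a, an RNA-binding protein of pluripotent cells, was at the low levels of 0.339, 1.26 and 1.62 TPM in ICM and 11.6, 17.2 and 3.31 TPM in Epi and rose (log2 difference 2.32 ± 0.62, adjusted p = 0.016). Lin28a was not called without ICM replicate 1 (log2 difference 2.04, adjusted p = 0.073). Dppa2, a chromatin factor of pluripotent cells and germ cells, fell 5.31-fold, from 1228, 1331 and 1329 to 235, 245 and 253 TPM (log2 difference -2.40 ± 0.09, adjusted p = 2.5e-07). Tdgf1, the Nodal co-receptor also known as Cripto, fell 2.21-fold (1075, 1029 and 1092 TPM in ICM and 522, 385 and 538 TPM in Epi, log2 difference -1.16 ± 0.13, adjusted p = 0.00014). Sall4, a zinc finger partner of OCT4, was 179, 181 and 185 TPM in ICM and 250.0, 381 and 461 TPM in Epi, and its difference of 0.95 stayed just below the minimum of 1 (adjusted p = 0.0051). Sall4 was called without Epi replicate 1 (log2 difference 1.20, adjusted p = 0.00058). In all, 1 of the list rose without ICM replicate 1.

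**Figure D2:**
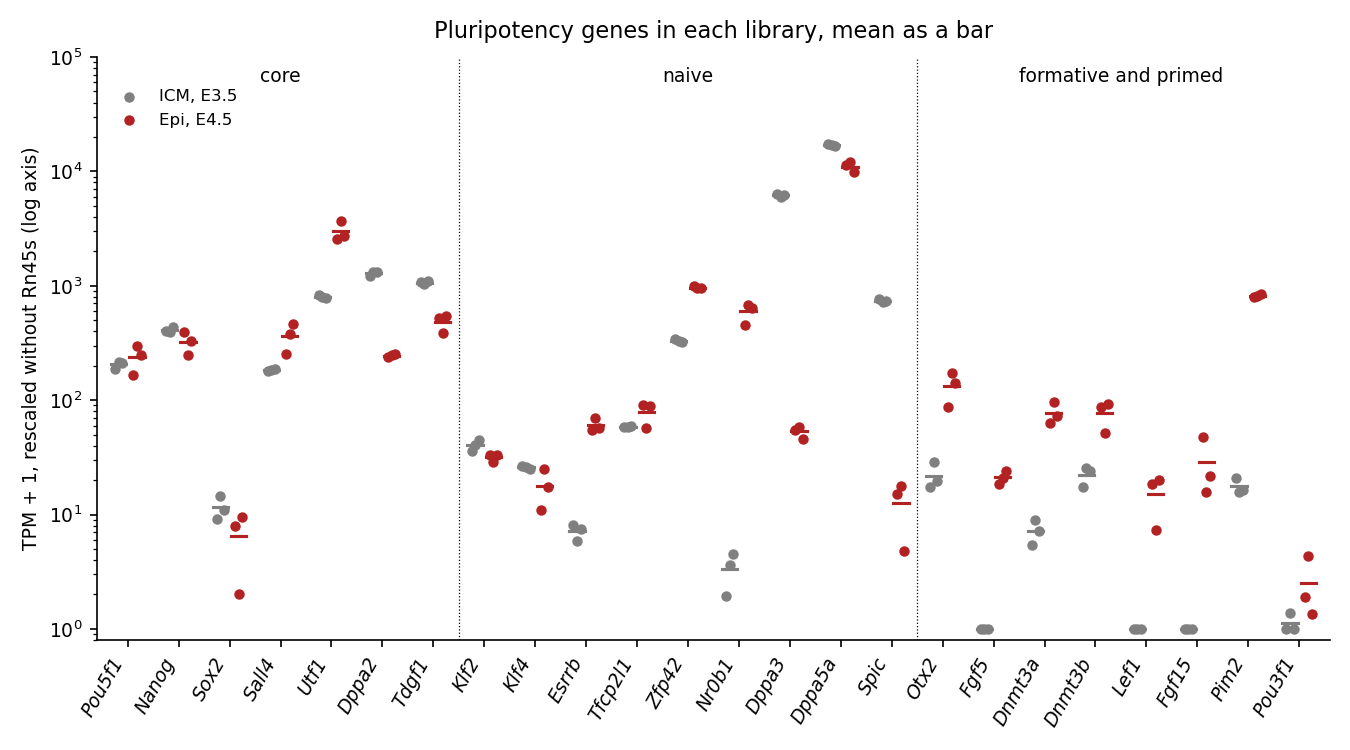
TPM + 1 (log axis) of 24 core, naive and formative pluripotency genes in each of the 3 ICM (grey) and 3 Epi (red) libraries, with the group mean as a bar. Pou5f1 and Nanog stay near their ICM level. Dppa3 and Spic drop, Pim2 rises, and Nr0b1, Fgf5 and Fgf15 rise from near or at 0.

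Of the 20 naive pluripotency genes tested, 5 rose, 4 fell and 11 were not called (median log2 difference -0.20). The largest rise was that of Nr0b1, which encodes the orphan receptor DAX1, a partner of the naive network. Its levels were 0.937, 2.60 and 3.54 TPM in ICM and 456, 685 and 644 TPM in Epi. Every Epi library lay far above every ICM library, a 252-fold higher mean (log2 difference 7.53 ± 0.33, adjusted p = 7.2e-07). Esrrb, an orphan nuclear receptor that sustains naive self-renewal, was 7.10, 4.86 and 6.48 TPM in ICM and 53.4, 68.3 and 56.0 TPM in Epi and rose 9.63-fold (log2 difference 3.08 ± 0.29, adjusted p = 5.1e-05). Zfp42, the naive marker also called Rex1, was already high and rose 2.93-fold, from 341, 325 and 319 to 994, 947 and 951 TPM (log2 difference 1.55 ± 0.08, adjusted p = 2e-06). Manba, a lysosomal mannosidase gene, rose as well (7.54, 6.64 and 5.12 TPM in ICM and 78.8, 53.1 and 86.4 TPM in Epi, log2 difference 3.29 ± 0.30, adjusted p = 4.6e-05). So did Zfp57, whose product protects imprinted methylation (82.8, 115 and 116 TPM in ICM and 406, 347 and 358 TPM in Epi, log2 difference 1.83 ± 0.16, adjusted p = 3.2e-05). The groups did not overlap in any of these 5 genes. In contrast Dppa3, the maternal and naive factor also known as Stella, was 6369, 5998 and 6176 TPM in ICM and 54.2, 57.8 and 44.9 TPM in Epi. All 3 Epi libraries lay far below all 3 ICM libraries, a 118-fold lower mean (log2 difference -6.87 ± 0.11, adjusted p = 2.8e-09). Spic, an ETS-family factor of the ICM, was 763, 714 and 728 TPM in ICM and 14.0, 16.9 and 3.82 TPM in Epi and fell 63.5-fold (log2 difference -6.08 ± 0.43, adjusted p = 9.1e-06). Pecam1, a surface adhesion molecule of the ICM, fell from 94.2, 82.9 and 84.6 to 23.9, 5.02 and 30.4 TPM (log2 difference -2.39 ± 0.54, adjusted p = 0.0072). Klf5, a Kruppel-like factor of the ICM and trophectoderm, fell 2.39-fold (116, 118 and 91.3 TPM in ICM and 33.0, 53.7 and 49.4 TPM in Epi, log2 difference -1.26 ± 0.23, adjusted p = 0.0021). The fall was thus larger for Dppa3 and Spic than for Pecam1 and Klf5. Dppa3 still held 44.9 to 57.8 TPM in Epi, near the level of Klf5 there. Other Kruppel-like factors of the naive network were not called: Klf2 was 34.9, 39.7 and 44.2 TPM in ICM and 32.2, 27.7 and 32.2 TPM in Epi, and Klf4 was 25.7, 25.1 and 24.0 TPM in ICM and 9.91, 23.8 and 16.3 TPM in Epi. Tfcp2l1, another naive factor, overlapped between the groups (57.8, 56.8 and 58.4 TPM in ICM and 89.0, 56.4 and 87.9 TPM in Epi), as did the FGF ligand gene Fgf4 (30.4, 34.0 and 35.0 TPM in ICM and 32.5, 38.8 and 53.0 TPM in Epi). Dppa5a, the most abundant gene of the list, was 17212, 17151 and 16819.7 TPM in ICM and 11266, 11967 and 9835 TPM in Epi, a difference below the minimum (log2 difference -0.63 ± 0.07, adjusted p = 0.00012). The plot of pluripotency genes shows these opposite moves side by side.

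Most of the formative and primed genes tested rose. Of 15 tested members of 20 listed, 11 rose, 1 fell and 3 were not called, a median of 2.58 log2. Pim2, a serine kinase gene, was 19.8, 14.7 and 15.5 TPM in ICM and 795, 807 and 847 TPM in Epi and rose 49.0-fold (log2 difference 5.54 ± 0.15, adjusted p = 6.8e-08). Car4, a carbonic anhydrase gene, was 0.159, 0.512 and 0 TPM in ICM and 43.9, 47.9 and 49.7 TPM in Epi (log2 difference 5.32 ± 0.40, adjusted p = 1.4e-05). The Epi libraries of both genes lay close together and far above ICM. Car4 was higher still outside the epiblast, at 285 ± 23.3 TPM in PrE and 201 ± 7.58 TPM in trophectoderm of E4.5. Otx2, the homeodomain factor that directs the exit from the naive state, rose 6.42-fold (16.2, 27.5 and 18.5 TPM in ICM and 86.2, 172 and 141 TPM in Epi, log2 difference 2.60 ± 0.30, adjusted p = 0.00018). The growth factor genes Fgf5 and Fgf15 and the WNT effector gene Lef1 were listed at 0 in all 3 ICM libraries. Fgf5 reached 17.4, 19.9 and 23.1 TPM in Epi (adjusted p = 5.6e-05), Fgf15 47.0, 14.7 and 20.8 TPM (adjusted p = 0.00014) and Lef1 17.4, 6.29 and 19.0 TPM (adjusted p = 0.00046). Myc, a growth-promoting factor, rose 6.35-fold (29.5, 21.6 and 31.1 TPM in ICM and 151, 127 and 244 TPM in Epi, log2 difference 2.58 ± 0.27, adjusted p = 9e-05). The 1 member that fell was Cdh2, which encodes N-cadherin (9.49, 10.4 and 11.1 TPM in ICM and 0.539, 0.264 and 1.23 TPM in Epi, log2 difference -2.80 ± 0.44, adjusted p = 0.0011). With Epi replicate 1, 2 or 3 left out, 5, 5 and 6 members rose, since genes at 0 in ICM can then no longer reach 1 TPM in 3 libraries. With the filter set at 2 libraries 10 to 11 rose, and with no filter 10 of the 20 listed did.

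Primitive endoderm genes went the other way, 12 of 20 tested members falling, 1 rising and 7 not called (median -1.85 log2). With ICM replicate 1, 2 or 3 left out, 16, 15 and 15 members were tested and 7, 7 and 6 fell. A gene near 0 in Epi can then no longer reach 1 TPM in 3 libraries. With the filter set at 2 libraries 9 to 11 fell. P4ha2, a collagen prolyl hydroxylase gene, was 66.0, 54.8 and 63.1 TPM in ICM and 0.555, 0 and 0 TPM in Epi (log2 difference -5.74 ± 0.40, adjusted p = 9.2e-06). Pdgfra, whose promoter drives the reporter, was 13.1, 15.2 and 20.1 TPM in ICM and 1.05, 0.0232 and 0.0246 TPM in Epi and fell 44.0-fold (log2 difference -3.71 ± 0.48, adjusted p = 0.00035). Since the study used a reporter of this promoter for isolation, the level of Pdgfra is no independent measure of lineage. Gata6, the factor that specifies the primitive endoderm, was 20.0, 13.3 and 21.7 TPM in ICM and 2.39, 0 and 0.532 TPM in Epi (log2 difference -3.45 ± 0.55, adjusted p = 0.0011). Its later partner Gata4 was 8.30, 7.29 and 5.67 TPM in ICM and 0.642, 0 and 0 TPM in Epi (log2 difference -2.76 ± 0.45, adjusted p = 0.0012). Sox17, an endoderm factor, fell 5.32-fold but kept up to 14.1 TPM in 1 Epi library (41.9, 53.1 and 37.8 TPM in ICM and 8.59, 2.32 and 14.1 TPM in Epi, log2 difference -2.52 ± 0.52, adjusted p = 0.0047). Residual values were unequal between the Epi libraries, with Gata4 at 0 in 2 of them and Gata6 at 0 in 1. P4ha2 and Gata4 reached 1 TPM only in ICM, so they had to differ to be tested. Genes of the basement membrane that this lineage secretes fell too, among them the collagen gene Col4a1 (10.9, 11.7 and 10.7 TPM in ICM and 2.51, 1.17 and 0 TPM in Epi, log2 difference -2.62 ± 0.54, adjusted p = 0.0046) and the laminin genes Lama1 (log2 difference -2.20 ± 0.47, adjusted p = 0.0051) and Lamb1 (log2 difference -1.93 ± 0.38, adjusted p = 0.0034). Cited1, a transcriptional coactivator gene, fell 5.85-fold (85.8, 65.8 and 63.2 TPM in ICM and 4.72, 15.9 and 16.1 TPM in Epi, log2 difference -2.61 ± 0.43, adjusted p = 0.0013). The 1 member that rose was the receptor gene Kit (1.68, 0.470 and 0 TPM in ICM and 6.27, 24.4 and 17.7 TPM in Epi, log2 difference 3.26 ± 0.62, adjusted p = 0.0029). Sparc, the most abundant matrix gene of the list, was not called (217, 209 and 202 TPM in ICM and 185, 197 and 211 TPM in Epi). The summed level of the list was 512 to 538 TPM in the ICM libraries and 258 to 309 TPM in the Epi libraries, with Sparc as the largest single part of both. In these bulk libraries fewer cells of a type and less RNA per cell cannot be told apart. In PrE of E4.5 the same genes stood at 18.1 ± 4.84 TPM for Gata6, 63.6 ± 13.1 TPM for Gata4 and 61.3 ± 14.6 TPM for Sox17.

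**Figure D3:**
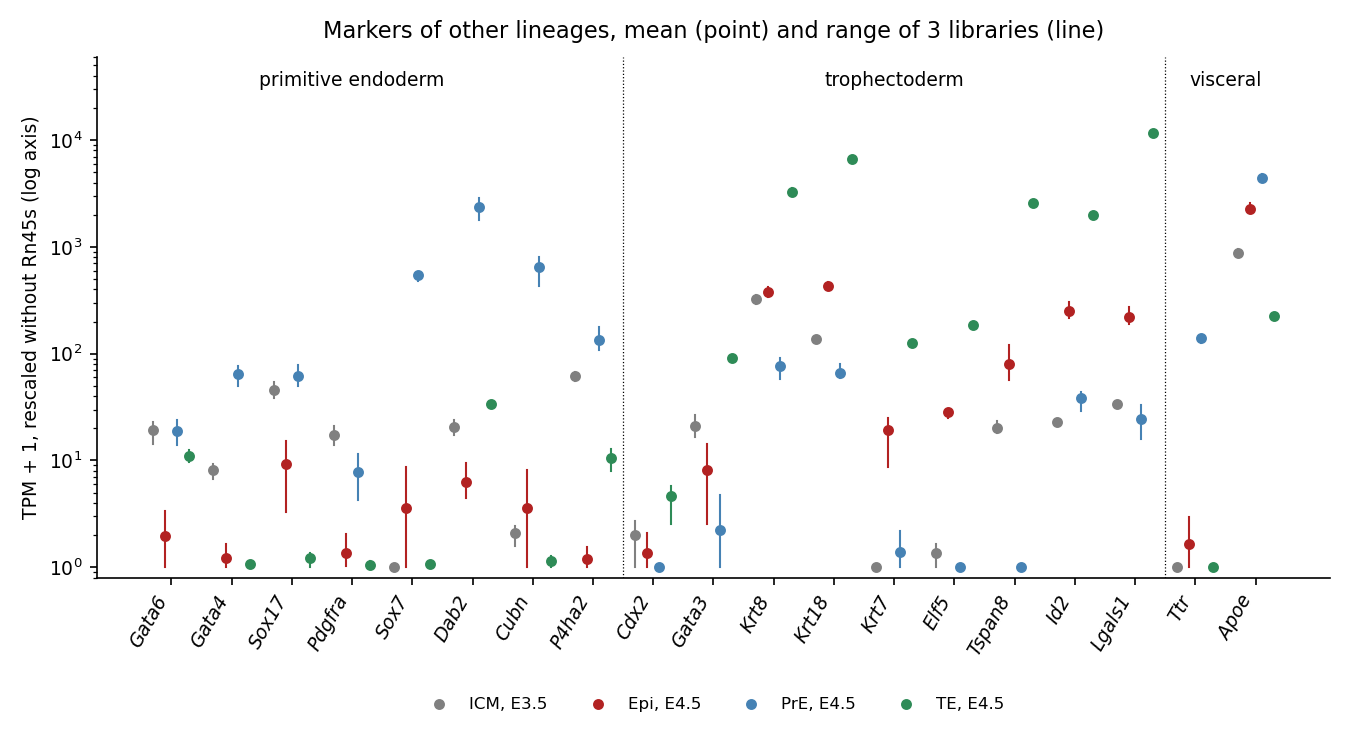
TPM + 1 (log axis) of primitive endoderm, trophectoderm and visceral endoderm markers in ICM of E3.5 (grey), Epi (red), PrE (blue) and trophectoderm (TE, green) of E4.5, as the mean (point) and range (line) of 3 libraries. Gata6, Gata4 and Pdgfra lie lower in Epi than in ICM and PrE. Krt7, Elf5, Tspan8, Id2 and Lgals1 lie higher in Epi than in ICM and highest in TE, while Cdx2 is low in both ICM and Epi.

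Trophectoderm genes, which mark the outer layer of the blastocyst, were mixed: 7 of 19 tested members rose, 3 fell and 9 were not called (median 0.23 log2). Elf5, an ETS factor of trophoblast, was 0.434, 0.653 and 0 TPM in ICM and 24.1, 29.7 and 28.8 TPM in Epi (log2 difference 4.41 ± 0.43, adjusted p = 6.4e-05). Krt7, a keratin of simple epithelia, was listed at 0 in all 3 ICM libraries and was 24.2, 7.67 and 23.4 TPM in Epi (adjusted p = 0.00034). Its partner Krt18 rose 3.18-fold (143, 138 and 125 TPM in ICM and 419, 468 and 402 TPM in Epi, log2 difference 1.66 ± 0.12, adjusted p = 9.1e-06). The helix-loop-helix inhibitor gene Id2 rose 11.4-fold (21.2, 23.5 and 20.8 TPM in ICM and 303, 228 and 215 TPM in Epi, log2 difference 3.44 ± 0.19, adjusted p = 2.2e-06). The tight junction gene Cldn4 (log2 difference 2.68 ± 0.38, adjusted p = 0.00056), the galectin gene Lgals1 (log2 difference 2.68 ± 0.19, adjusted p = 9.1e-06) and the tetraspanin gene Tspan8 (log2 difference 1.90 ± 0.31, adjusted p = 0.0014) rose too. Krt8 was not called (355, 325 and 293 TPM in ICM and 339, 424 and 379.6 TPM in Epi). Other transcription factors that define this layer fell or were not called. Cdx2 was at or near 0 in both groups (0, 1.26 and 1.71 TPM in ICM and 1.07, 0 and 0 TPM in Epi). Gata3 was 25.4, 18.7 and 15.6 TPM in ICM and 6.42, 13.3 and 1.54 TPM in Epi and was not called (log2 difference -1.67 ± 0.61, adjusted p = 0.055). It was called as a fall with each of the 3 other scalings (adjusted p = 0.024 with Rn45s kept, 0.043 with median-ratio scaling and 0.031 with quantile normalization), with a filter of 5 TPM (0.048), with array weights (0.017), with the replicate block (0.029) and without Epi replicate 2 (0.0068). Tfap2c fell with a wide spread (50.9, 59.4 and 51.7 TPM in ICM and 1.14, 18.4 and 18.2 TPM in Epi, log2 difference -2.57 ± 0.76, adjusted p = 0.024). Tfap2c was not called without ICM replicate 1, 2 or 3 (log2 differences -2.61, -2.50 and -2.60, adjusted p = 0.06, 0.068 and 0.06). The water channel gene Aqp3 (log2 difference -2.06 ± 0.23, adjusted p = 0.00014) and the lipid carrier gene Fabp3 (log2 difference -1.03 ± 0.10, adjusted p = 8e-05) fell as well. Fabp3 was not called without Epi replicate 3 (log2 difference -0.94, adjusted p = 9.8e-05). With quantile normalization its log2 difference was -0.98, also under the minimum. The mean of TE of E4.5 was 185 TPM for Elf5, 124 ± 5.18 TPM for Krt7, 6707 ± 386 TPM for Krt18, 2597 ± 118 TPM for Tspan8 and 11662 ± 557 TPM for Lgals1. The summed level of the list was 1493 to 1599 TPM in the ICM libraries and 1782 to 2048 TPM in the Epi libraries. Whether TE cells or free TE RNA in the Epi pools had a part in these rises was not tested. The count of rises was 5 with any 1 Epi library left out and 7 with the filter then set at 2 libraries.

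Of 13 visceral endoderm secretory genes 5 were tested and 3 rose: Apoe, a lipid carrier also made outside the endoderm (899, 796 and 952 TPM in ICM and 2059, 2555 and 2186 TPM in Epi, log2 difference 1.36 ± 0.10, adjusted p = 1.3e-05), Apom, a lipoprotein component (log2 difference 1.61 ± 0.43, adjusted p = 0.016), and Trf, the transferrin gene, listed at 0 in all ICM libraries and 10.8, 36.8 and 56.9 TPM in Epi (adjusted p = 0.00029). Apom was not called without ICM replicate 2 or 3 (log2 differences 1.42 and 1.37, adjusted p = 0.066 and 0.067). Apom was not called without Epi replicate 1 (log2 difference 1.48, adjusted p = 0.055). Of this list 1 rose and 2 fell without Epi replicate 1. Its summed level was 813 to 970 TPM in the ICM libraries and 2125 to 2636 TPM in the Epi libraries. Of 13 blood and uterine stroma genes in the table none reached the filter, 11 were at 0 in all 3 ICM libraries, and their summed level was 0.678 to 1.03 TPM in ICM and 1.89 to 14.0 TPM in Epi.

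Dppa3 and Khdc3, both known from the oocyte, fell, while other maternal genes were not called. Khdc3, a member of the subcortical maternal complex of the egg, was 4683, 4504 and 4621 TPM in ICM and 90.0, 144 and 129.7 TPM in Epi and fell 38.0-fold (log2 difference -5.26 ± 0.16, adjusted p = 9.4e-08). Together with Dppa3 it made up most of the summed level of the oocyte and maternal list, which went from 10628 to 11166 TPM in ICM to 298 to 341 TPM in Epi. Of the 6 members tested these 2 fell and the other 4 were not called. Ooep, of the same maternal complex, was 75.9, 76.1 and 60.4 TPM in ICM and 91.0, 85.0 and 77.0 TPM in Epi. Zp3, a zona pellucida gene, was 20.0, 29.5 and 25.9 TPM in ICM and 43.5, 50.6 and 29.3 TPM in Epi. Of 17 listed genes of the 2-cell list 3 were tested, of which 2 fell and 1 was not called. The summed level of the list was 211 to 218 TPM in the ICM libraries and 260 to 303 TPM in the Epi libraries. The list as a whole thus did not fall. Gm5662, a predicted gene active at genome activation, was 15.9, 17.9 and 15.7 TPM in ICM and 1.66, 0 and 0 TPM in Epi (log2 difference -3.66 ± 0.52, adjusted p = 0.00059). Obox6, an oocyte-type homeobox gene, was 15.2, 14.3 and 12.1 TPM in ICM and 5.95, 4.47 and 1.31 TPM in Epi (log2 difference -1.73 ± 0.50, adjusted p = 0.022). Obox6 was not called without ICM replicate 1, 2 or 3 (log2 differences -1.67, -1.71 and -1.82, adjusted p = 0.093, 0.087 and 0.068).

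Several target genes of FGF and ERK signalling rose, and the feedback inhibitor gene Spry2 fell. FGF ligands bind receptor kinases that act through GRB2, SOS1 and the ERK kinases on ETS factors and on feedback inhibitors of the Sprouty and DUSP families. Of 18 tested genes 8 rose, 4 fell and 6 were not called (median 0.95 log2). With any 1 Epi library left out 5 rose, or 7 to 8 with the filter set at 2 libraries, and with any 1 ICM library left out 2 fell. Among the nuclear targets Egr1, an immediate early zinc finger gene, was 4.68, 5.17 and 5.18 TPM in ICM and 190.2, 220.0 and 204 TPM in Epi and rose 40.8-fold (log2 difference 5.10 ± 0.21, adjusted p = 4.8e-07). Of the ETS factors, Etv4 came from near 0 (0, 0.0504 and 0.388 TPM in ICM and 8.97, 13.0 and 17.3 TPM in Epi, log2 difference 3.59 ± 0.46, adjusted p = 0.0003). Etv5 rose from a higher level (36.7, 38.6 and 46.0 TPM in ICM and 117, 145 and 187 TPM in Epi, log2 difference 1.84 ± 0.21, adjusted p = 0.00016). All 3 nuclear targets were thus higher in every Epi library. The part of cell dispersal in the level of Egr1 was not tested. Among the feedback inhibitors Dusp6, the phosphatase of ERK, was 5.41, 11.1 and 13.8 TPM in ICM and 79.4, 53.7 and 76.7 TPM in Epi and rose 6.91-fold (log2 difference 2.74 ± 0.36, adjusted p = 0.00036). Spry1 rose 14.9-fold (2.81, 4.06 and 4.22 TPM in ICM and 49.5, 55.7 and 60.4 TPM in Epi, log2 difference 3.59 ± 0.31, adjusted p = 3.3e-05). Its relative Spry2 fell 52.7-fold (263, 271 and 261 TPM in ICM and 4.37, 6.34 and 4.40 TPM in Epi, log2 difference -5.48 ± 0.22, adjusted p = 4.1e-07). The 2 Sprouty genes thus changed places, with no overlap between the groups in either. Upstream, the receptor gene Fgfr2, expressed in the primitive endoderm branch, fell (4.84, 6.11 and 4.60 TPM in ICM and 0.920, 0.109 and 1.48 TPM in Epi, log2 difference -1.82 ± 0.47, adjusted p = 0.014). Fgfr2 was not called without ICM replicate 1, 2 or 3 (log2 differences -1.86, -1.72 and -1.89, adjusted p = 0.063, 0.081 and 0.058). The adaptor gene Grb2 fell too (13.0, 9.57 and 11.1 TPM in ICM and 2.40, 2.18 and 2.26 TPM in Epi, log2 difference -1.89 ± 0.41, adjusted p = 0.0056).

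The ligand gene of the Nodal pathway and an antagonist gene rose from at or near 0. Nodal, the TGF-beta family ligand that sustains the epiblast after implantation, was 0, 0.620 and 0 TPM in ICM and 70.7, 69.5 and 86.2 TPM in Epi. All 3 Epi libraries lay far above ICM, where 2 libraries were at 0 (log2 difference 6.02 ± 0.40, adjusted p = 6.6e-06). Lefty2, a Nodal antagonist and target, was listed at 0 in all 3 ICM libraries and reached 13.5, 8.35 and 43.7 TPM in Epi (adjusted p = 0.00069). The inhibitory SMAD gene Smad7 rose (2.47, 1.87 and 2.76 TPM in ICM and 10.5, 5.70 and 6.22 TPM in Epi, log2 difference 1.30 ± 0.45, adjusted p = 0.044). Smad7 was not called without ICM replicate 1, 2 or 3 (log2 differences 1.32, 1.19 and 1.38, adjusted p = 0.14, 0.18 and 0.12). Smad7 was not called without Epi replicate 1 (log2 difference 1.06, adjusted p = 0.061). Each of the 3 other scalings ended the call as well (adjusted p = 0.094 with Rn45s kept, 0.062 with median-ratio scaling and 0.053 with quantile normalization). Of 13 tested members these 3 rose, the co-receptor Tdgf1 fell and 9 were not called (median 0.09 log2). Nodal and Lefty2 reached 1 TPM only in Epi, so they had to differ to be tested. Foxh1, the DNA-binding partner of the SMADs, was 43.3, 54.7 and 49.7 TPM in ICM and 113, 77.0 and 111 TPM in Epi, a difference just under the minimum (log2 difference 1.00 ± 0.21, adjusted p = 0.0046). Foxh1 was called without ICM replicate 2 or 3 (log2 differences 1.08 and 1.01, adjusted p = 0.013 and 0.019). Foxh1 was called without Epi replicate 2 (log2 difference 1.18, adjusted p = 0.00069). It was also called with array weights and with a pseudocount of 0.1 TPM. Of the list 0, 4 and 1 rose without Epi replicate 1, 2 or 3, and with the filter set at 2 libraries 2, 6 and 3.

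In the BMP list 1 of 8 tested genes rose, Id2, which also stands in the trophectoderm list, and without Epi replicate 2, 2 rose. Its relative Id3 was 214, 250.5 and 222 TPM in ICM and 336, 382 and 326 TPM in Epi (log2 difference 0.60 ± 0.12, adjusted p = 0.0032), and the ligand gene Bmp4 was 78.1, 79.4 and 95.2 TPM in ICM and 116, 102 and 166 TPM in Epi (log2 difference 0.58 ± 0.20, adjusted p = 0.048), both below the minimum. In the LIF, JAK and STAT3 list 3 of 14 rose and 2 fell. The homeobox gene Gbx2, a STAT3 target of naive cells, was 6.13, 1.91 and 2.92 TPM in ICM and 26.4, 48.4 and 56.0 TPM in Epi and rose 11.9-fold (log2 difference 3.30 ± 0.46, adjusted p = 0.00053). The cytokine receptor gene Il6ra (1.24, 2.21 and 2.21 TPM in ICM and 28.8, 19.8 and 14.9 TPM in Epi, log2 difference 2.91 ± 0.44, adjusted p = 0.00079) and the kinase gene Pim3 (28.3, 35.3 and 38.1 TPM in ICM and 105, 64.2 and 123 TPM in Epi, log2 difference 1.46 ± 0.27, adjusted p = 0.0024) rose too. The related kinase gene Pim1 (18.1, 21.9 and 20.3 TPM in ICM and 11.2, 4.05 and 9.13 TPM in Epi, log2 difference -1.30 ± 0.41, adjusted p = 0.033) and the phosphatase gene Ptpn11 (log2 difference -1.21 ± 0.39, adjusted p = 0.034) fell. Stat3 itself overlapped between the groups (42.9, 48.6 and 54.8 TPM in ICM and 69.5, 30.4 and 42.8 TPM in Epi). None of the list fell with any 1 ICM library left out, where the adjusted p of Pim1 was 0.094 to 0.13 and that of Ptpn11 0.084 to 0.16. With Epi replicate 1, 2 or 3 left out 1 fell, but not the same gene each time. Ptpn11 was not called without Epi replicate 1 or 3 (adjusted p = 0.063 and 0.06). Pim1 was under the minimum without Epi replicate 2 (log2 difference -0.92).

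The Hippo pathway restrains the coactivators YAP and TAZ, which drive TEAD factors. Of 18 tested genes 7 rose, 3 fell and 8 were not called (median 0.53 log2). Mob1a, a coactivator of the LATS kinases, was 9.55, 11.9 and 10.8 TPM in ICM and 613, 709 and 677 TPM in Epi and rose 62.0-fold (log2 difference 5.83 ± 0.16, adjusted p = 6.2e-08). Its paralog Mob1b fell at low level (2.97, 3.46 and 2.92 TPM in ICM and 0.638, 0.152 and 0.892 TPM in Epi, log2 difference -1.43 ± 0.42, adjusted p = 0.025). Nf2, the upstream scaffold Merlin, rose 8.65-fold (11.7, 14.7 and 10.5 TPM in ICM and 90.4, 101 and 128 TPM in Epi, log2 difference 3.01 ± 0.24, adjusted p = 1.9e-05). Mob1a and Nf2 both act against YAP. Of the YAP target genes, Ccn1 was 48.4, 56.8 and 45.6 TPM in ICM and 249, 128 and 187 TPM in Epi (log2 difference 1.84 ± 0.24, adjusted p = 0.00036). Ccn2 was 11.9, 13.9 and 12.9 TPM in ICM and 63.7, 51.0 and 68.0 TPM in Epi (log2 difference 2.15 ± 0.24, adjusted p = 0.00015). Amotl2, a target that also retains YAP at junctions, was 1.76, 3.69 and 8.97 TPM in ICM and 55.4, 26.4 and 45.2 TPM in Epi (log2 difference 3.04 ± 0.52, adjusted p = 0.0016). All 3 targets rose, with no overlap between the groups. Wwtr1, which encodes TAZ, fell (19.3, 24.7 and 25.2 TPM in ICM and 4.68, 6.01 and 5.59 TPM in Epi, log2 difference -1.90 ± 0.34, adjusted p = 0.0022). Tead4, the TEAD factor of the trophectoderm, was 11.1, 13.8 and 14.0 TPM in ICM and 5.96, 5.91 and 6.46 TPM in Epi and was not called (log2 difference -0.97 ± 0.36, adjusted p = 0.059), but it was called as a fall with each of the 3 other scalings. With any 1 ICM library left out 1 of the list fell, and with Rn45s kept 4 did.

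Both de novo methyltransferase genes and their cofactor gene rose. Of 14 tested, 7 rose and the other 7 were not called (median 1.03 log2). Dnmt3l, the cofactor of the de novo methyltransferases, was 47.6, 42.0 and 30.4 TPM in ICM and 1002, 1054 and 1287 TPM in Epi and rose 27.9-fold (log2 difference 4.78 ± 0.18, adjusted p = 3.3e-07). Dnmt3a rose 12.4-fold (4.43, 7.95 and 6.12 TPM in ICM and 62.3, 95.3 and 71.8 TPM in Epi, log2 difference 3.44 ± 0.31, adjusted p = 4e-05). Dnmt3b rose 3.57-fold (16.4, 24.5 and 23.1 TPM in ICM and 86.5, 50.9 and 91.0 TPM in Epi, log2 difference 1.76 ± 0.29, adjusted p = 0.0013). The cofactor gene thus stood far above both enzyme genes on the length-scaled TPM. Tet1, which oxidises methylcytosine, rose as well (24.9, 23.9 and 24.8 TPM in ICM and 133, 89.4 and 139.6 TPM in Epi, log2 difference 2.22 ± 0.22, adjusted p = 6.7e-05). Hells, a remodeller that assists methylation, rose 2.69-fold (78.2, 94.1 and 81.8 TPM in ICM and 225, 202 and 258 TPM in Epi, log2 difference 1.42 ± 0.15, adjusted p = 0.0001). Uhrf1, the partner of DNMT1, had means of 104 ± 0.814 TPM (ICM) and 81.3 ± 16.3 TPM (Epi) and was not called. When Epi replicate 1 was left out, 7 rose and 2 fell.

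Polycomb genes, whose 2 complexes write H3K27me3 and H2AK119ub1, gave 8 rises, 4 falls and 18 uncalled members of 30 tested (median -0.08 log2). Phc1, a polyhomeotic subunit of the canonical complex PRC1, was 3.02, 1.79 and 1.99 TPM in ICM and 367, 461 and 465 TPM in Epi. It rose 190.0-fold (log2 difference 7.06 ± 0.24, adjusted p = 2.1e-07), with every Epi library far above the highest ICM library. Its paralog Phc3 rose 23.5-fold (1.33, 1.19 and 0.797 TPM in ICM and 28.3, 26.4 and 23.3 TPM in Epi, log2 difference 3.68 ± 0.40, adjusted p = 0.00011). The PRC1 gene Pcgf2 was 5.31, 3.71 and 5.14 TPM in ICM and 46.6, 38.9 and 56.5 TPM in Epi (log2 difference 3.07 ± 0.32, adjusted p = 9.7e-05). Kdm2b, which brings a variant PRC1 to CpG islands, was 20.5, 20.1 and 22.4 TPM in ICM and 116, 102 and 159 TPM in Epi (log2 difference 2.50 ± 0.22, adjusted p = 3.3e-05). Rnf2, the ubiquitin ligase of PRC1, rose by less (33.0, 50.4 and 47.9 TPM in ICM and 172, 71.1 and 146 TPM in Epi, log2 difference 1.47 ± 0.33, adjusted p = 0.0066). These 5 genes all belong to PRC1 complexes. Ezh2, the methyltransferase of PRC2, fell 5.10-fold (81.1, 83.3 and 85.6 TPM in ICM and 23.6, 5.63 and 19.8 TPM in Epi, log2 difference -2.49 ± 0.45, adjusted p = 0.0023). The PRC1 genes Cbx8 (11.6, 18.1 and 11.4 TPM in ICM and 0, 3.94 and 0 TPM in Epi, log2 difference -3.08 ± 0.68, adjusted p = 0.0061) and Bmi1 (7.35, 6.98 and 11.0 TPM in ICM and 0.851, 0 and 5.26 TPM in Epi, log2 difference -2.04 ± 0.68, adjusted p = 0.039) fell too. Bmi1 was not called without ICM replicate 1, 2 or 3 (log2 differences -2.12, -2.15 and -1.85, adjusted p = 0.096, 0.091 and 0.13). Bmi1 was not called without Epi replicate 1 or 2 (log2 differences -1.89 and -1.45, adjusted p = 0.098 and 0.065). The PRC2 core gene Eed was not called (263, 286 and 310.2 TPM in ICM and 299.9, 226 and 316 TPM in Epi). Of the list 2 fell with any 1 ICM library left out. Members of PRC1 stood on both sides.

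Of 14 tested genes of the H3K4 methyltransferase complexes, which write the mark found with H3K27me3 at bivalent promoters, 6 rose and the other 8 were not called (median 1.04 log2). Rbbp5, a core subunit of all these complexes, rose 10.8-fold (15.7, 15.4 and 7.87 TPM in ICM and 127, 138 and 156 TPM in Epi, log2 difference 3.39 ± 0.28, adjusted p = 2.5e-05). Wdr82, which recruits the SET1 complexes to promoters, was 12.0, 8.05 and 7.92 TPM in ICM and 72.3, 65.0 and 49.9 TPM in Epi (log2 difference 2.62 ± 0.29, adjusted p = 0.00013). Hcfc1, a cofactor of several of the complexes, was 11.6, 10.8 and 13.2 TPM in ICM and 61.2, 63.0 and 91.6 TPM in Epi (log2 difference 2.49 ± 0.26, adjusted p = 9.6e-05). The catalytic subunit gene Setd1b was 1.41, 1.19 and 0.767 TPM in ICM and 14.4, 5.73 and 7.04 TPM in Epi (log2 difference 2.16 ± 0.49, adjusted p = 0.007). All 4 genes were higher in every Epi library. Dpy30, the most abundant subunit gene of the list, was not called (698, 704 and 688 TPM in ICM and 639, 657 and 665 TPM in Epi). Among 8 demethylases of H3K4 and H3K27, the H3K4 demethylase gene Kdm5c rose (3.69, 2.90 and 3.74 TPM in ICM and 16.7, 16.5 and 16.9 TPM in Epi, log2 difference 2.00 ± 0.37, adjusted p = 0.0026), the H3K27 demethylase gene Kdm6b fell (22.1, 24.1 and 21.2 TPM in ICM and 4.77, 7.95 and 4.42 TPM in Epi, log2 difference -1.84 ± 0.36, adjusted p = 0.0036) and 6 were not called. With Epi replicate 1 left out, 2 rose.

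Glycolysis turns glucose into pyruvate and, through lactate dehydrogenase, lactate. Of its 20 genes tested 14 rose, 2 fell and 4 were not called (median 1.63 log2). The count of rises stayed at 13 to 14 under each alternative tried. The summed level of the list was 3521 to 3651 TPM in the ICM libraries and 16687 to 18581 TPM in the Epi libraries. At the entry of the pathway the glucose transporter genes Slc2a1 (69.8, 67.5 and 77.5 TPM in ICM and 94.3, 65.4 and 112 TPM in Epi) and Slc2a3 (15.3, 18.1 and 14.5 TPM in ICM and 19.9, 17.0 and 28.0 TPM in Epi) were not called. The hexokinase genes Hk1 (2.66, 4.01 and 3.58 TPM in ICM and 0, 0.903 and 0.112 TPM in Epi, log2 difference -1.77 ± 0.45, adjusted p = 0.012) and Hk2 (19.2, 12.0 and 13.1 TPM in ICM and 5.04, 0.873 and 5.33 TPM in Epi, log2 difference -1.90 ± 0.56, adjusted p = 0.023) fell. With any 1 ICM library left out, Hk1 could not be tested and the adjusted p of Hk2 was 0.063 to 0.11. In the middle of the pathway the phosphofructokinase gene Pfkp was 10.4, 9.03 and 8.56 TPM in ICM and 219.7, 196 and 275 TPM in Epi and rose 24.6-fold (log2 difference 4.47 ± 0.21, adjusted p = 1e-06). Gapdh rose 6.77-fold (459, 477 and 484 TPM in ICM and 2997, 2996 and 3626 TPM in Epi, log2 difference 2.75 ± 0.09, adjusted p = 1.7e-07). Pgk1, phosphoglycerate kinase, rose 7.67-fold (61.3, 52.7 and 52.2 TPM in ICM and 442, 378 and 455 TPM in Epi, log2 difference 2.92 ± 0.14, adjusted p = 1.1e-06). The genes Aldoa, Tpi1, Pgam1 and Pkm rose by less, with Pgam1 the least (2.69-fold, log2 difference 1.41 ± 0.11, adjusted p = 2.1e-05) and Tpi1 the most (log2 difference 2.15 ± 0.13, adjusted p = 4.9e-06). Eno1, enolase, was 393, 384 and 379 TPM in ICM and 4543, 4837 and 4639 TPM in Epi and rose 12.1-fold (log2 difference 3.60 ± 0.07, adjusted p = 7.7e-09). Ldha, the lactate dehydrogenase that ends the pathway, was 46.8, 40.4 and 42.1 TPM in ICM and 1059, 1088 and 1109 TPM in Epi. It rose 25.2-fold with closely agreeing libraries (log2 difference 4.63 ± 0.11, adjusted p = 3.7e-08). Ldhb, the other subunit, rose to a much lower level (0, 0.691 and 2.02 TPM in ICM and 24.9, 14.9 and 11.2 TPM in Epi, log2 difference 3.31 ± 0.56, adjusted p = 0.0015). The lactate exporter gene Slc16a3 rose (0.0835, 0.0535 and 0 TPM in ICM and 2.28, 49.4 and 37.4 TPM in Epi, log2 difference 4.15 ± 0.94, adjusted p = 0.0073), but 1 Epi library lay far below the other 2. Gapdh, Eno1, Ldha and Pgk1 have processed copies in the genome, so their levels are uncertain as far as the counting could split reads between copies.

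**Figure D4:**
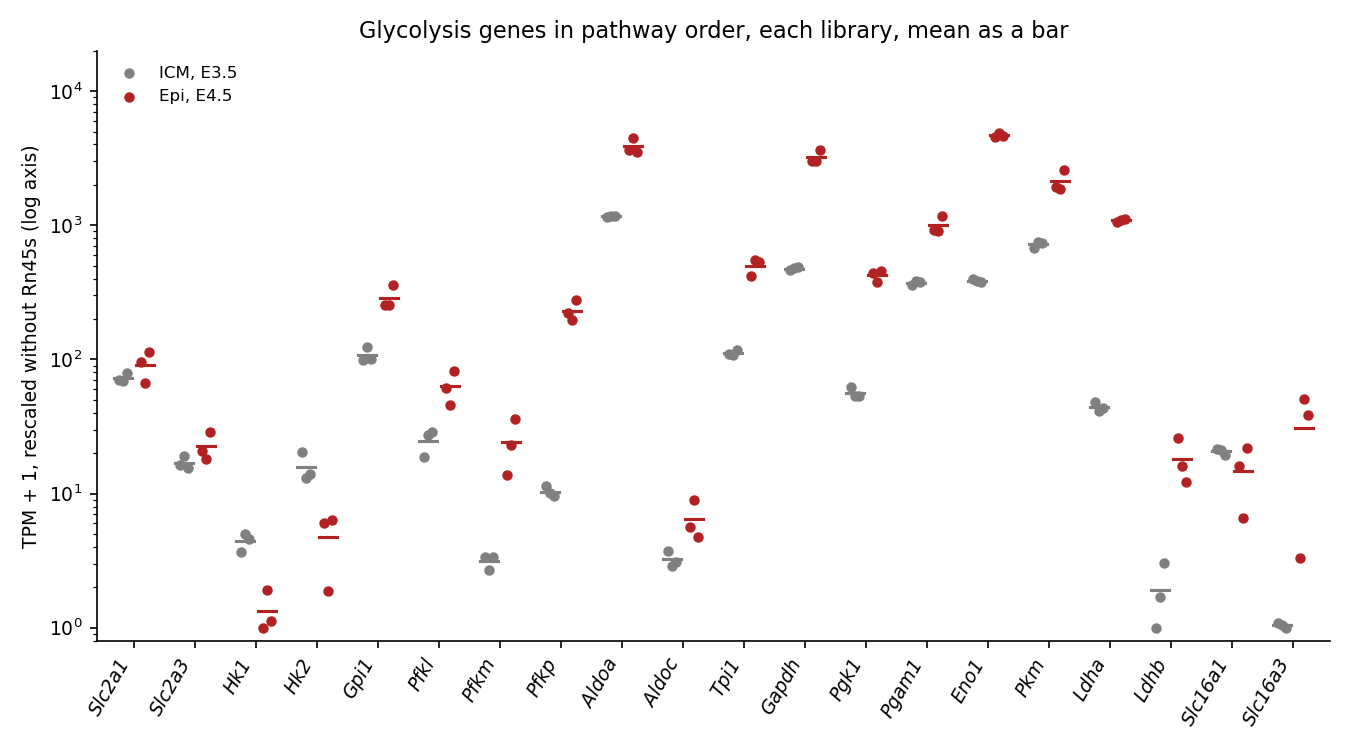
TPM + 1 (log axis) of the 20 glycolysis genes in pathway order, in each of the 3 ICM (grey) and 3 Epi (red) libraries, with the group mean as a bar. From Gpi1 to Ldha every gene but Aldoc rose, whereas Hk1 and Hk2 at the entry fell and Slc2a1 and Slc2a3 stayed near their ICM level.

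Since many of these genes rose, stretches of 2 promoters are shown, those of Ldha and Pgk1, which both rose and hold more than 1 copy of a short motif. The motif searched was ACGTG on either strand in the 250 bases before the start site, the core that hypoxia-inducible factors bind and also part of the E-box CACGTG, using the promoter table of RefSeq (GRCm38.p6). It lay in 16.6% of 32851 promoters and in at least 1 promoter of 18.5% of 27025 genes. Of 19 glycolysis genes matched by symbol, 10 held it. The motif did not separate the genes that rose: 7 of these 10 rose, and 7 of the 9 without it rose. Below, the motif is in capitals and the rest in lower case, 5′ to 3′ on the plus strand, which is the strand of both genes. The stretch of Ldha lies at chr7:46845654-46845783, 150 to 21 bases before its start, and holds 5 matches counted on both strands. That of Pgk1 lies at chrX:106186940-106186989, 160 to 111 bases before its start, and holds 2.
Ldha: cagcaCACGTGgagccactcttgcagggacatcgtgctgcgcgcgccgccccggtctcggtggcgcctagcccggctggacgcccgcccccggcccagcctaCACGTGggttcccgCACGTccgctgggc
Pgk1: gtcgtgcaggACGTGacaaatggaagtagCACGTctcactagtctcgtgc
A match is a description of the letters and not evidence of binding.

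Cell cycle genes gave 6 rises, 3 falls and 18 uncalled members of 27 tested (median 0.27 log2), or 4 and 4 with Rn45s kept and with median-ratio scaling. Cdkn1a, the p53-responsive inhibitor p21, was 6.76, 8.90 and 6.46 TPM in ICM and 139, 269.8 and 161 TPM in Epi and rose 25.8-fold (log2 difference 4.46 ± 0.29, adjusted p = 6.1e-06). Cdkn1b, the inhibitor p27, fell 25.6-fold (16.6, 16.2 and 18.7 TPM in ICM and 1.31, 0.167 and 0.537 TPM in Epi, adjusted p = 0.00033). The 2 inhibitor genes thus moved in opposite directions. The G1 cyclin genes Ccnd1 (2.85, 3.55 and 2.76 TPM in ICM and 20.1, 25.0 and 59.3 TPM in Epi, log2 difference 2.99 ± 0.46, adjusted p = 0.00095) and Ccnd2 (0, 0.335 and 0 TPM in ICM and 12.4, 2.46 and 9.08 TPM in Epi, log2 difference 2.82 ± 0.58, adjusted p = 0.0044) rose. The S-phase kinase gene Cdk2 fell (209.9, 186 and 201 TPM in ICM and 49.5, 63.6 and 125 TPM in Epi, log2 difference -1.42 ± 0.30, adjusted p = 0.0047). Ccnd3, the most abundant D cyclin gene, overlapped between the groups (528, 546 and 516 TPM in ICM and 469, 409 and 603 TPM in Epi).

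Of 15 apoptosis and cell competition genes 6 rose, 2 fell and 7 were not called, and without ICM replicate 2, 1 fell. Trp53, which encodes p53, rose 2.74-fold (378, 369 and 331 TPM in ICM and 789, 1043 and 1119 TPM in Epi, log2 difference 1.44 ± 0.14, adjusted p = 5.2e-05). Its inhibitor gene Mdm2 rose as well (29.7, 30.6 and 31.3 TPM in ICM and 75.1, 60.5 and 98.0 TPM in Epi, log2 difference 1.29 ± 0.22, adjusted p = 0.0017), though by 0.95 with Rn45s kept. Of the proapoptotic genes Bid rose (26.6, 14.4 and 32.0 TPM in ICM and 81.0, 47.0 and 103 TPM in Epi, log2 difference 1.62 ± 0.37, adjusted p = 0.0073). Bad (119, 104 and 100.3 TPM in ICM and 57.3, 10.9 and 34.5 TPM in Epi, log2 difference -1.90 ± 0.49, adjusted p = 0.013) and Pmaip1, a p53 target (11.4, 15.6 and 10.7 TPM in ICM and 0.747, 4.26 and 1.80 TPM in Epi, log2 difference -2.18 ± 0.52, adjusted p = 0.0089), fell. Pmaip1 was not called without ICM replicate 2 (log2 difference -2.03, adjusted p = 0.054). Of 14 immediate early and heat shock genes 4 rose and 10 were not called. Hspb1, a small heat shock protein gene, was 44.6, 28.9 and 43.7 TPM in ICM and 2990.2, 3746 and 2589 TPM in Epi and rose 79.7-fold (log2 difference 6.29 ± 0.19, adjusted p = 1.1e-07). Atf3, a stress-induced factor gene, rose 45.1-fold (1.55, 0.998 and 1.16 TPM in ICM and 75.5, 33.6 and 58.0 TPM in Epi, log2 difference 4.60 ± 0.42, adjusted p = 4.2e-05). The abundant chaperone genes Hspa8 (5760.1, 5439.8 and 5777 TPM in ICM and 7919, 6941 and 7629 TPM in Epi) and Hsp90aa1 (3268, 3299 and 3269 TPM in ICM and 3076, 2631 and 3126 TPM in Epi) were not called. The Epi libraries of Hspb1 thus came near the level of the latter. The part of cell dispersal in these levels was not tested.

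Genes of polarity, adhesion and basement membrane receptors, which build the later epiblast epithelium, gave 8 rises and 4 falls of 25 tested (median -0.08 log2), and 5 of each with Rn45s kept. With any 1 ICM library left out 2 to 3 fell. Podxl, the apical sialomucin of the lumen, was 0.114, 0 and 0 TPM in ICM and 4.59, 12.8 and 4.07 TPM in Epi (log2 difference 2.82 ± 0.51, adjusted p = 0.0022). Llgl2, a basolateral polarity gene, rose 10.9-fold (3.24, 4.64 and 4.40 TPM in ICM and 43.6, 41.8 and 49.0 TPM in Epi, log2 difference 3.18 ± 0.32, adjusted p = 7.3e-05). Cdh1, E-cadherin, rose 3.30-fold (16.9, 16.4 and 21.1 TPM in ICM and 55.1, 55.9 and 68.5 TPM in Epi, log2 difference 1.67 ± 0.23, adjusted p = 0.00051). The tight junction gene Cgn fell 24.1-fold (45.8, 44.1 and 49.6 TPM in ICM and 2.66, 3.04 and 0.0874 TPM in Epi, log2 difference -4.23 ± 0.54, adjusted p = 0.0003). Itgb1, a subunit of laminin-binding integrins, fell with a wide spread (28.3, 37.2 and 37.3 TPM in ICM and 7.26, 0.613 and 13.8 TPM in Epi, log2 difference -2.59 ± 0.72, adjusted p = 0.019). Itgb1 was not called without ICM replicate 2 or 3 (log2 differences -2.52 and -2.52, adjusted p = 0.06 and 0.06). Of 17 sex chromosome genes 6 rose, 1 fell and 10 were not called, and without Epi replicate 2 none fell, without Epi replicate 3, 2. Rlim, the X-linked ubiquitin ligase that activates Xist, was 47.3, 48.6 and 38.8 TPM in ICM and 435, 293 and 451 TPM in Epi and rose 8.75-fold (log2 difference 3.08 ± 0.19, adjusted p = 5.2e-06). Xist, the RNA that coats the inactive X chromosome, was 13.1, 9.91 and 12.2 TPM in ICM and 7.33, 11.6 and 5.42 TPM in Epi and was not called (log2 difference -0.53 ± 0.40, adjusted p = 0.33). An antisense gene overlaps Xist, and without strand the reads of both cannot be told apart.

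Among all genes the largest rises outside predicted genes were those of Bex1, Stmn2, Laptm5, Nr0b1, Cd81, Septin1, Dab1, Phc1, Tceal9 and Chac1. Bex1, a small brain-expressed X-linked gene, was listed at 0 in all 3 ICM libraries and was 633, 769 and 598 TPM in Epi (adjusted p = 6.2e-08). Stmn2, a microtubule regulator gene known from neurons, was also listed at 0 in ICM and was 385, 337 and 376 TPM in Epi (adjusted p = 1.7e-07). Both were high in all 3 Epi libraries. Septin1, a filament-forming GTPase gene, rose 191-fold (4.29, 3.37 and 5.54 TPM in ICM and 769, 976 and 773 TPM in Epi, log2 difference 7.29 ± 0.21, adjusted p = 7.7e-08). Laptm5, a lysosomal membrane gene known from blood cells, was 1.69, 0.0730 and 0 TPM in ICM and 249, 303 and 411 TPM in Epi (log2 difference 7.79 ± 0.43, adjusted p = 2.4e-06). The tetraspanin gene Cd81 was 2.01, 0 and 0 TPM in ICM and 299, 235 and 233 TPM in Epi (log2 difference 7.46 ± 0.46, adjusted p = 4.5e-06). Dab1, an adaptor of reelin signalling, was 0, 0.306 and 0 TPM in ICM and 162, 248 and 102 TPM in Epi (log2 difference 7.21 ± 0.41, adjusted p = 3e-06). These 3 came from near 0 in ICM. The largest falls were those of Bhmt, Tat, Dppa3, Timd2, Pnliprp2, Slc24a5, Akr1c21, Aqp8, Spic and Scand1. Bhmt, which makes methionine from betaine, was 2699, 2473 and 2565 TPM in ICM and was listed at 0 in all 3 Epi libraries (adjusted p = 2.8e-09). Tat, tyrosine aminotransferase, was 214, 206 and 207 TPM in ICM and 0.784, 0 and 0 TPM in Epi (log2 difference -7.43 ± 0.35, adjusted p = 1e-06). Several others are known from metabolic tissues. The lipase-related gene Pnliprp2 was 79.3, 101 and 93.8 TPM in ICM and 0.565, 0 and 0 TPM in Epi (log2 difference -6.31 ± 0.39, adjusted p = 4.5e-06), the aldo-keto reductase gene Akr1c21 was 77.8, 102 and 85.6 TPM in ICM and 0.258, 0.221 and 0 TPM in Epi (log2 difference -6.27 ± 0.37, adjusted p = 3.6e-06) and the water channel gene Aqp8 was 137, 138 and 123 TPM in ICM and 3.21, 0 and 0.436 TPM in Epi (log2 difference -6.20 ± 0.52, adjusted p = 2.5e-05). The groups did not overlap in any of these 20 genes, which is part of how they were picked.

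The E4.5 libraries of the sister lineage, the PrE, show which levels were reached in the epiblast branch. Between Epi and PrE of E4.5 limma called 23.1% of 10665 genes, 13.2% higher and 9.92% lower in Epi. Between PrE and ICM it called 42.1% of 10778 genes, 19.5% higher and 22.6% lower in PrE. The first of these and the comparison above share the same Epi libraries, and the second shares the ICM libraries, so values are set side by side and no overlap is counted. Nr0b1 was 1.96 ± 1.70 TPM in PrE (Epi minus PrE log2 difference 7.88 ± 0.53, adjusted p = 9.9e-06), Phc1 0.984 ± 1.70 TPM (log2 difference 8.09 ± 0.56, adjusted p = 1.1e-05) and Septin1 2.61 ± 0.828 TPM (log2 difference 7.88 ± 0.30, adjusted p = 3.7e-07). These 3 genes were far lower in PrE than in Epi. Zfp42 was 56.0 ± 6.78 TPM (log2 difference 4.09 ± 0.16, adjusted p = 4.9e-07) and Dusp6 was at or near 0 in PrE, with a highest value of 0.423 TPM (log2 difference 5.96 ± 0.56, adjusted p = 6.5e-05). For other genes that rose, the level in PrE was not called apart from that in Epi. Mob1a was 545 ± 64.4 TPM there (log2 difference 0.29 ± 0.13, adjusted p = 0.14), Ldha 1204 ± 11.4 TPM (log2 difference -0.15 ± 0.09, adjusted p = 0.27), Eno1 4079 ± 257 TPM (log2 difference 0.20 ± 0.08, adjusted p = 0.08), Atf3 57.3 ± 3.88 TPM (log2 difference -0.11 ± 0.34, adjusted p = 0.84) and Rlim 365 ± 136 TPM (log2 difference 0.15 ± 0.27, adjusted p = 0.73). Fgf5, often taken as an epiblast marker, was 81.2 ± 12.1 TPM in PrE, above Epi (log2 difference -1.96 ± 0.31, adjusted p = 0.0015). PrE of E4.5 had a Rn45s share near that of Epi, and its part in the shared levels was not tested.

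At the next age, E4.75, some levels had moved again, and limma called 26.4% of 11598 genes between Epi of E4.75 and of E4.5 (12.9% higher, 13.6% lower). The Epi of E4.75 libraries had an Rn45s share of 1.01%, so these differences again set libraries of unlike composition against each other. Nr0b1 was 34.9 ± 0.645 TPM at E4.75 (log2 difference -4.03 ± 0.17, adjusted p = 1.7e-06), Esrrb 1.14 ± 0.231 TPM (log2 difference -4.81 ± 0.34, adjusted p = 2.1e-05) and Zfp42 107 ± 5.77 TPM (log2 difference -3.16 ± 0.09, adjusted p = 6.1e-07). Nanog was 7.38 ± 2.64 TPM (log2 difference -5.29 ± 0.27, adjusted p = 3.7e-06), and Pou5f1 was 161 ± 11.0 TPM (log2 difference -0.51 ± 0.20, adjusted p = 0.082). Nr0b1, Esrrb and Zfp42 thus stood higher in Epi of E4.5 than in ICM before and in Epi of E4.75 after. Mob1a (23.0 ± 0.787 TPM, log2 difference -4.80 ± 0.12, adjusted p = 3.1e-07), Rlim (39.2 ± 1.88 TPM, log2 difference -3.27 ± 0.18, adjusted p = 6.2e-06), Egr1 (12.6 ± 1.11 TPM, log2 difference -3.92 ± 0.17, adjusted p = 2.2e-06), Atf3 (0.317 ± 0.466 TPM, log2 difference -5.41 ± 0.47, adjusted p = 6.6e-05) and Chac1 (1.51 ± 0.511 TPM, log2 difference -6.59 ± 0.27, adjusted p = 1.5e-06) were also lower at E4.75. Spry2 had risen again to 104 ± 13.1 TPM (log2 difference 4.13 ± 0.26, adjusted p = 1.1e-05). Ldha (2124 ± 33.9 TPM, log2 difference 0.97 ± 0.07, adjusted p = 1.7e-05), Pim2 (882 ± 33.5 TPM, log2 difference 0.11 ± 0.08, adjusted p = 0.3) and Bex1 (882 ± 35.7 TPM, log2 difference 0.41 ± 0.11, adjusted p = 0.018) were not called. Fgf5 (73.8 ± 5.76 TPM, log2 difference 1.83 ± 0.20, adjusted p = 0.00023), Lef1 (89.2 ± 10.6 TPM, log2 difference 2.69 ± 0.38, adjusted p = 0.00088) and Dnmt3b (368 ± 14.4 TPM, log2 difference 2.31 ± 0.21, adjusted p = 8.5e-05) rose further. Dppa3 was 47.0 ± 5.05 TPM (log2 difference -0.15 ± 0.19, adjusted p = 0.59).

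**Figure D5:**
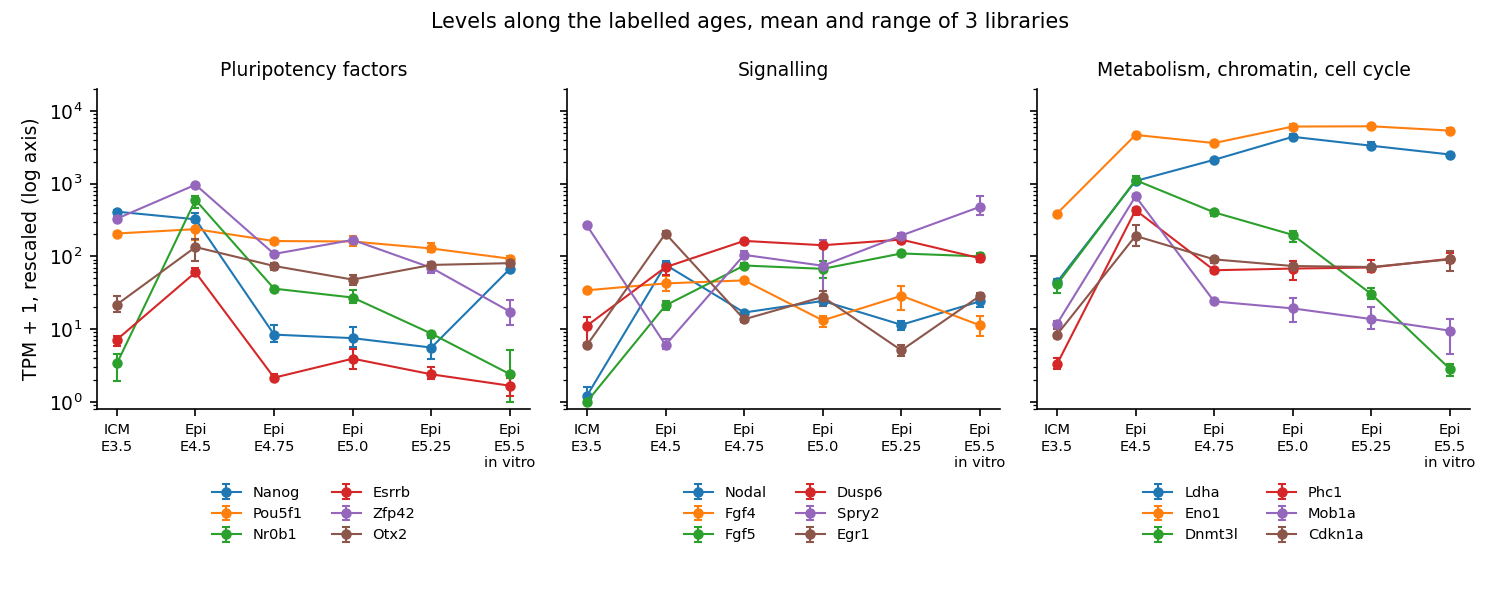
TPM + 1 (log axis) of 18 genes in ICM of E3.5 and in Epi at 5 labelled ages from E4.5 to the in vitro group of E5.5, as the mean and range of 3 libraries, with lines joining the ages of separate libraries. Nr0b1, Esrrb, Zfp42, Egr1 and Mob1a peak at E4.5, Spry2 dips there, and Ldha, Eno1 and Fgf5 stay high afterwards. Up to E5.25 the groups shown are those whose names say neither in vivo nor in vitro.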

How the data were processed

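RNA levels of 3 ICM libraries of E3.5 and 3 Epi libraries of E4.5 were compared, grouped by their labels, with PrE of E4.5 and Epi of E4.75 (3 each) beside them. The authors' deposited table gives TPM for 25006 genes in 67 libraries. The submitters' processing notes name HISAT2 2.2.1, StringTie 2.2.1, Cufflinks and the mm10 assembly. The role of each tool, the gene models and whether strand was used are not given in the sources used here, so overlapping, antisense and near-identical genes are uncertain. Total reads are unknown, since TPM keeps no depth.

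The row Rn45s was dropped, each column was rescaled to a sum of 1000000, and log2(TPM + 1) was fitted by limma 3.58.1 (R 4.3.3; moderated variances that follow mean expression) on the 6 libraries compared. A gene was tested where 3 or more of them held 1 TPM or more. Tests were two-sided, adjusted by the Benjamini-Hochberg method, and calls needed a log2 difference of 1 or more in either direction besides an adjusted p under 0.05. In simulated data of 11149 genes with these libraries' means, the fit recovered 65% of 100 genes changed by 1.5 log2 and 96% of 100 changed by 3 log2, and 4.73% of 169 calls were false. The changed genes were drawn from the more abundant ones, and the noise had the same spread in both groups. These rates therefore do not carry over to genes near 0 or to the unequal spread of the real libraries. Positions are on GRCm38, the assembly mm10 names.

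The members and the 24 gene lists (432 symbols, 425 in the table and 337 tested) were chosen with earlier results of these data known. Genes were named by rule: Nanog and Pou5f1, in each list at most 3 called members in either direction, the largest first, and at most 2 uncalled ones, the most abundant first, and for each direction the 10 largest differences among called genes whose libraries do not overlap, predicted and small RNA genes left out. Further members of the lists (among them Bid, Ccn1, Ccn2, Cdh1, Cdx2, Cited1, Cldn4, Col4a1, Dnmt3b, Dusp6, Eno1, Etv5, Gapdh, Gata3, Gata4, Hells, Kdm2b, Klf2, Klf4, Klf5, Krt18, Lama1, Lamb1, Ldhb, Lef1, Lgals1, Mdm2, Nf2, Otx2, Pgam1, Rnf2, Sall4, Setd1b, Sox17, Spry1, Tfcp2l1, Tpi1, Trp53, Tspan8, Xist, Zfp42 and Zfp57) were named after their values were seen. The alternatives kept Rn45s, changed the scaling (median-ratio, quantile), the pseudocount (0.1 TPM) or the filter (none, 5 TPM), fitted all 67 libraries, used array weights or a replicate block, dropped the minimum difference, or left out single libraries.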

Additional observations from a re-analysis of the deposited data

Results flagged for a closer look

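Rn45s, the ribosomal RNA precursor row left out of all comparisons, held 22.0% ± 3.17 of all deposited TPM in E4.5 Epi against 0.566% ± 0.0378 in ICM (SD, n = 3 each). For 6 of the genes that the text names by rule, the change from ICM went in opposite directions in the branches, each called. In each the difference between Epi and PrE of E4.5 was itself called by limma. Higher than ICM in Epi and lower in PrE were, with the log2 difference of Epi minus PrE, Esrrb 5.02, Tet1 3.30 and Ccnd1 4.78. Lower than ICM in Epi and higher in PrE were P4ha2 -6.82, Fabp3 -2.35 and Aqp8 -8.57. Genes named after their values were seen were not searched in this way, and genes at 0 in all libraries of ICM or of PrE were left aside. The share of all genes that moved in opposite directions was not counted.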

How the results depend on the processing

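The counts of genes higher and lower in Epi, 2111 and 1604, were 2039 and 1453 with a pseudocount of 0.1 TPM, 1717 and 1242 with no filter, 1770 and 1376 with a filter of 5 TPM, and 2128 and 1565 with array weights. They were 2827 and 1999 in a fit of all 67 libraries and 2600 and 2073 with no minimum difference. Scaling turned the balance: 1626 and 2298 with Rn45s kept, 1845 and 1990 with median-ratio scaling, 1909 and 1994 with quantile normalization. Leaving out 1 library gave 1584 to 2177 higher genes and 954 to 1856 lower genes, the lowest of the latter, 954 to 972, without an ICM library (1074 to 1112 with the filter in 2 libraries, an alternative chosen after the data were seen). Without Epi replicate 1 or 3, higher genes were 49.0% and 50.1% of the calls. With a replicate block the counts were 2055 and 1524. Same-numbered ICM and Epi libraries did not deviate together (correlations -0.013, -0.019 and -0.004). This gives no sign of pairing by number, but noise in single libraries could hide it, and the labels do not say. Of 186 named genes, none that was called changed sign. Small differences of uncalled genes did: with Rn45s kept Pou5f1 was -0.19, Fgf4 -0.0521, Krt8 -0.12, Ooep -0.0908 and Slc2a1 -0.0426; with median-ratio scaling Pou5f1 was -0.0273; with quantile normalization Dpy30 was 0.0132; with array weights Stat3 was 0.0136 and Eed 0.0080; and without ICM replicate 3 (also with the filter in 2 libraries) Eed was 0.0185. With single libraries left out Pou5f1 ranged from -0.0171 (without Epi replicate 2) to 0.397 (without Epi replicate 1), Stat3 from -0.42 (without Epi replicate 1) to 0.17, Eed from -0.13 to 0.11 and Ccnd3 from -0.28 (both without Epi replicate 3) to 0.0053, the upper ends of these 3 being without Epi replicate 2, also with the filter in 2 libraries. The cause was not tested. Calls that ended with no filter were those of Lin28a, Tfap2c, Pim1, Ptpn11, Fgfr2, Smad7, Mob1b, Bmi1, Hk1 and Hk2. Those of Smad7, Mob1b and Bmi1 also ended with the smaller pseudocount, and those of Ptpn11, Smad7 and Mob1b with the block. TPM keeps no depth, so what depth limits is unknown. The spread of the Epi libraries, 0.53 log2 against 0.20 in ICM, limits the precision of small changes.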

Other observations

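Further gene groups were noticed and put together after their values were seen, and their counts are a description beside the 18.9% of all genes that rose and the 14.4% that fell. Genes of the amino acid response, by which cells answer a shortage of amino acids through ATF4, rose in 16 of 17 tested cases, and the other was not called. The group as put together held 18 genes. Atf4 itself was 93.3, 98.9 and 89.8 TPM in ICM and 520.0, 384 and 542 TPM in Epi and rose 5.12-fold (log2 difference 2.33 ± 0.15, adjusted p = 6.1e-06). The glutathione-degrading enzyme gene Chac1 was 1.19, 0 and 2.73 TPM in ICM and 236, 264 and 216 TPM in Epi (log2 difference 6.89 ± 0.45, adjusted p = 6.5e-06), the pseudokinase gene Trib3 5.55 ± 0.717 TPM in ICM and 174 ± 8.81 TPM in Epi (adjusted p = 9.5e-07) and the stress factor gene Nupr1 7.69, 4.18 and 5.42 TPM in ICM and 347, 302 and 310.1 TPM in Epi (log2 difference 5.60 ± 0.24, adjusted p = 5.6e-07). The synthesis enzyme genes Asns (log2 difference 2.19 ± 0.09, adjusted p = 4.6e-07) and Psat1 (log2 difference 2.96 ± 0.08, adjusted p = 7.1e-08) and the amino acid transporter genes Slc7a1 (log2 difference 5.94 ± 0.39, adjusted p = 6.1e-06), Slc7a3 (log2 difference 5.36 ± 0.23, adjusted p = 6.6e-07) and Slc38a2 (log2 difference 6.31 ± 0.40, adjusted p = 5.2e-06) rose too. In PrE of E4.5 Chac1 was 132 ± 12.8 TPM, Trib3 66.7 ± 12.6 TPM and Nupr1 192 ± 16.4 TPM, and at E4.75 Epi was at 1.51 ± 0.511, 7.41 ± 1.45 and 16.8 ± 2.80 TPM.

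Of 12 listed genes of the BEX and TCEAL family, small acidic proteins encoded side by side on the X chromosome, 7 were tested and 6 rose. Besides Bex1 these were Bex2 (1.40, 1.53 and 0 TPM in ICM and 114, 136 and 96.2 TPM in Epi, log2 difference 5.98 ± 0.44, adjusted p = 1.1e-05), Bex3 (16.1, 17.5 and 18.7 TPM in ICM and 1103, 1224 and 949.7 TPM in Epi, log2 difference 5.89 ± 0.15, adjusted p = 3.7e-08), Bex4 (4.14, 4.47 and 1.98 TPM in ICM and 91.8, 106 and 109 TPM in Epi, log2 difference 4.55 ± 0.32, adjusted p = 9.8e-06), Tceal8 (0.424, 0.730 and 0 TPM in ICM and 48.4, 68.8 and 69.0 TPM in Epi, log2 difference 5.53 ± 0.41, adjusted p = 1.2e-05) and Tceal9 (2.43, 3.51 and 3.57 TPM in ICM and 673, 442 and 487 TPM in Epi, log2 difference 6.99 ± 0.24, adjusted p = 2.1e-07). They lie between 136066564 (the start of Bex2) and 136271978 (the end of Bex3) on chromosome X of GRCm38. Bex1 and Tceal8 reached 1 TPM only in Epi, so they had to differ to be tested. In PrE of E4.5 the mean was 36.0 TPM for Bex1, 18.6 TPM for Bex2, 672 TPM for Bex3 and 239 TPM for Bex4. In TE of E4.5 it was 894, 7.26, 2495 and 90.4 TPM for the same genes. High levels of Bex1, Bex3 and Bex4 were thus not confined to Epi of E4.5. All 4 tested PRAMEL genes, a family of the preimplantation embryo, fell: Pramel4 (187, 195 and 179 TPM in ICM and 5.62, 3.46 and 5.98 TPM in Epi, log2 difference -4.99 ± 0.25, adjusted p = 1.6e-06), Pramel5 (53.9, 41.2 and 50.6 TPM in ICM and 3.12, 0 and 0 TPM in Epi, log2 difference -4.94 ± 0.59, adjusted p = 0.00022), Pramel6 (369, 376 and 433 TPM in ICM and 65.6, 57.5 and 65.6 TPM in Epi, log2 difference -2.62 ± 0.13, adjusted p = 1.5e-06) and Pramel7 (217, 195 and 198 TPM in ICM and 21.0, 16.7 and 27.6 TPM in Epi, log2 difference -3.19 ± 0.21, adjusted p = 6.4e-06). Members of this family share sequence, so their single levels are uncertain. Of 9 members listed, 6 were in the table and 4 were tested. Among retinoic acid receptors Rara (0, 0.435 and 0 TPM in ICM and 60.5, 52.8 and 62.9 TPM in Epi, log2 difference 5.72 ± 0.40, adjusted p = 8.8e-06) and Rarg (0, 0 and 0.271 TPM in ICM and 20.7, 62.5 and 39.5 TPM in Epi, log2 difference 5.14 ± 0.51, adjusted p = 6.7e-05) rose, and Rarb (5.03, 5.61 and 6.39 TPM in ICM and 0.746, 0 and 0 TPM in Epi, log2 difference -2.47 ± 0.45, adjusted p = 0.0022) and Rxrg (17.9, 14.6 and 22.8 TPM in ICM and 0.659, 0 and 0 TPM in Epi, log2 difference -4.01 ± 0.46, adjusted p = 0.00016) fell. Rara and Rarg reached 1 TPM only in Epi, and Rarb and Rxrg only in ICM, so these too had to differ to be tested.

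Of the genes near Nanog, Phc1 rose and Dppa3 fell. On chromosome 6 of GRCm38, Phc1 (122317731 to 122340561) rose by 7.06 log2, Dppa3 (122626410 to 122630272) fell by 6.87 log2, and Nanog (122707489 to 122714633) and Slc2a3 (122727809 to 122801640) were not called. This group of neighbours was picked after its values were seen.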
